A study of Rattus norvegicus with 15 samples.

Results

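The genes described here are Vegfa, which encodes vascular endothelial growth factor A, the genes of its receptors, Flt1 and Kdr, and the endothelin genes Edn1, Ece1, Ednra and Ednrb. Probes were taken by gene symbol, with no use of their values, and 6 of the 5088 probes on the array carried one of these 7 symbols. They covered 5 genes: Vegfa had 2 probes (25C10 and 52C12) and Flt1 (37E03), Kdr (37E06), Ece1 (13F05) and Edn1 (17F08) had 1 each. No probe carried the symbol of either endothelin receptor, Ednra or Ednrb, which are therefore not analysed here. The first number of a probe name was read here as its plate of 96 probes and the rest as its well.

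Cells dissociated from lumbar dorsal root ganglia (DRG) of juvenile rats were cultured in Sato medium, either with 1.5 mM dbcAMP, a form of cAMP that enters cells, or in medium alone. The question was which mRNAs change when cAMP is raised in cells of the kind in which it promotes axon growth. Treated and untreated cells were compared on 15 spotted-oligonucleotide arrays, 3 at each of 1, 3, 6, 12 and 18 h, always with Cy5 on the treated and Cy3 on the untreated RNA. Dishes were coated with poly-L-lysine or with myelin, and the coating behind each array is not given in the labels. The first time is 1 h in the labels of its arrays, whereas their treatment protocol lists 0 h in that place. The sources used here give neither strain nor sex, nor whether separate cultures lay behind the 3 arrays of a time, and p-values therefore reflect the spread of arrays alone, which may be technical. Such cultures can hold neurons, glia, fibroblasts and cells of blood vessels, and in their RNA a change in the number of cells of a type cannot be told apart from a change in RNA per cell. A ratio also carries no level, so the markers of these cell types could not show which of them were present.

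Vascular endothelial growth factor A (VEGF-A) is a secreted ligand that drives the growth and permeability of blood vessels and also acts on neurons and Schwann cells. It signals mainly through the receptor tyrosine kinase Kdr, while Flt1 binds it tightly and can hold it away from Kdr, and the neuropilins Nrp1 and Nrp2 act as coreceptors. Endothelin 1, the product of Edn1, is a potent vasoconstrictor peptide that is cut from an inactive precursor by the membrane protease Ece1. Its receptors are also carried by sensory neurons and glia, where the peptide can evoke pain. Transcription of Vegfa and Edn1 is known to respond to hypoxia.

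Promoter sequence is shown for Vegfa and Ece1, whose ratios were past the threshold, and for Flt1, the receptor that Vegfa shares with other ligands, to show which letters of cAMP and hypoxia elements lie next to their starts. Each runs from 250 bases before to 50 bases after the start of the gene in RefSeq, build GRCr8, and Vegfa had 2 entries, of which the first is printed. Capitals mark the cAMP response element TGACGTCA and the GC box GGGCGG, searched on both strands, so that a GC box on the opposite strand reads CCGCCC.
Vegfa, chr9:22452604-22452903, + strand: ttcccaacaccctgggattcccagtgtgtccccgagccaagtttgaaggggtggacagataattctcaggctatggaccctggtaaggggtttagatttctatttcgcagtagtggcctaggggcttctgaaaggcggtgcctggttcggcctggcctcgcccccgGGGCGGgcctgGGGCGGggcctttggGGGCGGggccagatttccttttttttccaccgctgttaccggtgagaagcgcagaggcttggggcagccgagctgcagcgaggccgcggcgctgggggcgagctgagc
Flt1, chr12:12333180-12333479, + strand: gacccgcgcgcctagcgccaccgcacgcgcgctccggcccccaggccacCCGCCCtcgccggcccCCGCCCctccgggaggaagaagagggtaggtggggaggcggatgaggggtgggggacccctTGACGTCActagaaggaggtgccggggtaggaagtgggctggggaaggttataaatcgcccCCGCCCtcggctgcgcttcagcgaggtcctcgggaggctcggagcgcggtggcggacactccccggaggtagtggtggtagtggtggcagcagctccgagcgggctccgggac
Ece1, chr5:155360781-155361080, + strand: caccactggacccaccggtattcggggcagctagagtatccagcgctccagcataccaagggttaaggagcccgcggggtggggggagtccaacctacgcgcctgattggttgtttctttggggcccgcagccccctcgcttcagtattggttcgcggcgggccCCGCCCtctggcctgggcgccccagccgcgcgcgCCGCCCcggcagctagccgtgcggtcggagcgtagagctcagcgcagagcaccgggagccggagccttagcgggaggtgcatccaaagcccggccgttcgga
The Vegfa window held 3 GC boxes, at -84, -73 and -58 from the start, and the Ece1 window held 2, at -86 and -52. The cAMP response element was found at -124 in the Flt1 window, together with 3 GC boxes at -201, -185 and -63. The core of the hypoxia response element, ACGTG, was found in the Edn1 window at -201 and not in those of the other 4 measured genes, both Vegfa entries included. Of 33469 promoter windows of 300 bases, 1.83% held TGACGTCA, 19.3% held ACGTG and 33.1% held GGGCGG. These matches describe letters only.

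Each deposited value is the ratio of treated to control RNA at a probe, used here on the log2 scale, on which 1 is a doubling and 0 is no difference. A probe was called higher or lower at a time when its mean over the 3 arrays differed from 0 with an adjusted p under 0.05 in limma, a linear model fitted to all 15 arrays and with Benjamini-Hochberg adjustment over all probes. Array medians ran from a ratio of 0.997 to 1.02. Ratios were more widely spread on 6 arrays (SD of 0.627 to 0.703 on the log2 scale) than on the remaining 9 (0.357 to 0.434). The wide arrays were those of 18 h, the first 2 of 12 h and the third of 6 h. No array had the dyes exchanged, so at any single time a dye bias of a probe cannot be told apart from the treatment. A constant bias drops out when 2 times are compared.

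In dbcAMP-treated cells Ece1 was higher at 3, 6, 12 and 18 h, by up to 2.76-fold. The 2 probes of Vegfa moved in opposite directions: 25C10 was higher by 1.75-fold at 18 h, whereas 52C12 was lower at all 5 times, by 7.43-fold at 3 h. Flt1, Kdr and Edn1 were not past the threshold at any time. Of the 6 member probes, 1 was called at 1 h, where 2.33% of all probes were called, and 2 were called at 3 h, where 2.87% were. At 6 h 2 were called against 4.19% of all probes, at 12 h 2 against 8.58%, and at 18 h 3 against 22%.

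**Figure D1:**
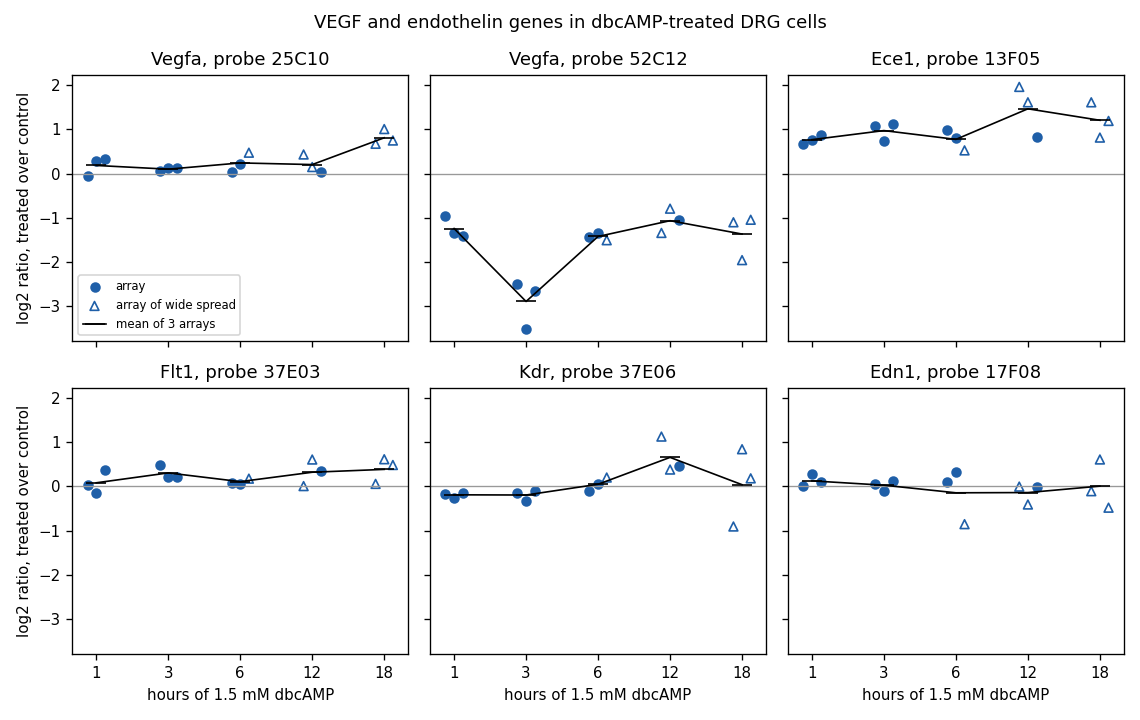
Log2 ratio of dbcAMP-treated over control RNA (y axis) against hours of dbcAMP (x axis) for the 6 probes, with 1 point per array, open triangles for the 6 arrays of wide spread and a line through the means of 3 arrays. Ece1 lies above 0 and Vegfa 52C12 below 0 on all 15 arrays, and Vegfa 25C10 is highest at 18 h.

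Ece1 encodes endothelin-converting enzyme 1, the protease that releases active endothelin from its precursor. Its log2 ratios were 0.68, 0.76 and 0.86 at 1 h, 1.06, 0.74 and 1.11 at 3 h, and 0.99, 0.81 and 0.52 at 6 h. At 12 h they were 1.96, 1.61 and 0.82, and at 18 h 1.61, 0.81 and 1.19. All 15 arrays were therefore above 0, between 0.52 and 1.96, a pattern met by 2.35% of the 4815 probes with a ratio on every array. The mean log2 ratio was 0.77 ± 0.09 at 1 h (SD, n = 3), with a limma adjusted p of 0.0574, which missed the threshold. The 3 h mean was 0.97 ± 0.20 (limma adjusted p = 0.0117) and the 6 h mean 0.77 ± 0.23 (0.0393), while the 12 h mean reached 1.46 ± 0.58 (0.000543) and the 18 h mean 1.20 ± 0.40 (0.000625, SD, n = 3 each). Of 4964 probes tested at every time, 0.363% were called higher at 3, 6, 12 and 18 h.

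At 12 h Ece1 was the highest of the 95 tested probes on its plate, and at the other times it was second from the top. The median of Ece1 was 1.40 over the 6 wide arrays and 0.82 over the other 9. Between times the enzyme's ratio did not change past the threshold: the F test over the 5 times gave an adjusted p of 0.443, and 18 h exceeded 1 h by 0.44 on the log2 scale (95% interval -0.14 to 1.02, limma adjusted p = 0.453). In the order 12, 18, 3, 6 and 1 h, no neighbours differed past the threshold, with limma adjusted p-values of 0.718 to 0.999. No other pair of times did either, so the calls of Ece1 rest on single times. At a single time a dye bias of the probe cannot be told apart from the treatment. The calls at 3 h and 6 h depended on every array. Leaving out any one of the 3 gave means of 0.90 to 1.09 at 3 h (limma adjusted p 0.0540 to 0.132) and 0.67 to 0.90 at 6 h (0.0731 to 0.177), while the calls at 12 h and 18 h held without any single array. With only the arrays of that time in the fit, Ece1 was not called at 12 h (limma adjusted p = 0.121) or 18 h (0.0536).

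Vegfa was measured by 2 probes that the annotation ties to different transcript records of the gene. For probe 25C10 the log2 ratios were -0.06, 0.28 and 0.33 at 1 h, 0.05, 0.12 and 0.13 at 3 h, 0.04, 0.21 and 0.47 at 6 h, and 0.43, 0.15 and 0.03 at 12 h. At 18 h they were 0.67, 1.01 and 0.75. All 3 arrays at 18 h lay above the 12 arrays of the earlier times, whose highest value was 0.47. The mean at 18 h was 0.81 ± 0.17 (SD, n = 3), or 1.75-fold, with a limma adjusted p of 0.000414, and it was 216th from the top among 5006 probes tested. At the earlier times the mean lay between 0.10 and 0.24 and was not past the threshold.

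The ratio of 25C10 at 18 h exceeded that at 3 h by 0.71 (95% interval 0.34 to 1.08, limma adjusted p = 0.0413), a difference in which 3.25% of all probes were called. The other 3 differences from 18 h were of similar size and not past the threshold, with 0.63 against 1 h (adjusted p = 0.0707), 0.57 against 6 h (0.0908) and 0.61 against 12 h (0.124, limma). No member probe was called by limma in the difference between 18 h and 1 h, where 2.74% of all probes were, and 25C10 was the 1 probe with an unadjusted p under 0.05. The call between 18 h and 3 h was lost when any replicate number was left out at all times (difference 0.62 to 0.75, limma adjusted p 0.157 to 0.317). Those fits called 12 to 24 of all probes in that difference, against 162 with every array. The call of 25C10 at 18 h held without any single array (adjusted p 0.00237 to 0.00511, limma). The median of 25C10 was 0.57 on the 6 wide arrays and 0.12 on the other 9, and with arrays scaled to a common spread Vegfa 25C10 was still called at 18 h (0.53, limma adjusted p = 0.0126), while 18 h exceeded 3 h by 0.39 (adjusted p = 0.328).

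For probe 52C12 the log2 ratios were -0.95, -1.36 and -1.42 at 1 h, -2.50, -3.52 and -2.66 at 3 h, and -1.43, -1.33 and -1.51 at 6 h. At 12 h they were -1.34, -0.79 and -1.06, and at 18 h -1.10, -1.96 and -1.05. Every array was below 0, as for 3.66% of probes with a ratio on every array, and the arrays at 3 h lay below all others. The 1 h mean was -1.24 ± 0.25 (limma adjusted p = 0.00545), the 3 h mean -2.89 ± 0.55 (2.82e-06) and the 6 h mean -1.42 ± 0.09 (0.00147). The later means were -1.07 ± 0.27 after 12 h (limma adjusted p = 0.0059) and -1.37 ± 0.51 after 18 h (0.000414, SD, n = 3 each). At 3 h it was second from the bottom among 5050 probes tested. The call was lost at 1 h without array 2 (limma adjusted p = 0.0692) or array 3 (0.0738) and at 12 h without array 1 (0.0669). With arrays scaled to a common spread Vegfa 52C12 was not past the threshold at 12 h (-0.95, adjusted p = 0.0663) or 18 h (-0.90, 0.0621, limma). Of the 4964 probes tested at every time, 0.745% were called lower at all 5.

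This probe changed over the times (F = 13.01, limma adjusted p = 0.0195, where 1.87% of all probes were called). Its ratio at 3 h was lower than at 12 h by 1.83 (95% interval 1.20 to 2.45, limma adjusted p = 0.0180, where 0.2% of all probes were called) and lower than at 18 h by 1.53 (0.90 to 2.15, adjusted p = 0.0158). The differences of 3 h from 1 h, -1.65, and of 6 h from 3 h, 1.47, were not past the threshold, with adjusted p-values of 0.200 and 0.164 (limma). Between 3 h and 1 h limma called 0 of 5036 probes (0%), with 64 at an unadjusted p under 0.05, and between 6 h and 3 h it called 0.0398%. Without any one replicate number the F test was no longer past the threshold (F = 7.70 to 16.2, adjusted p 0.163 to 0.257), nor was the difference between 12 h and 3 h (1.38 to 2.16, adjusted p 0.193 to 0.296, limma). Among all probes those fits called 5 or 6 by the F test, against 93 with every array. Between 12 h and 3 h they called 0, against 10. The difference between 18 h and 3 h was lost without replicate 1 (1.59, limma adjusted p = 0.154) or replicate 3 (1.48, adjusted p = 0.149). These fits called 24 and 13 of all probes in that difference, against 162 with every array.

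On the same array 25C10 exceeded 52C12 by 0.89 to 3.64 on the log2 scale, with a median of 1.77, on all 15 arrays. Over the arrays the pair had a Pearson correlation of 0.13 and a Spearman correlation of -0.01. Most other genes with 2 probes showed smaller distances between them, and at 18 h the median over 167 such genes was 0.38, where Vegfa, at 2.18, ranked second from the top. Its rank was second at 1, 3 and 6 h as well, and ninth at 12 h. Among the genes with 2 probes, 6 had them called in opposite directions at 18 h, and these were Adcy2, Bcan, Gad1, Scn8a, Stat5a and Vegfa. Nos3, which had more than 2 probes and was not in this count, also had probes called in both directions. The direction of Vegfa mRNA as a whole is therefore not settled by these arrays.

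**Figure D2:**
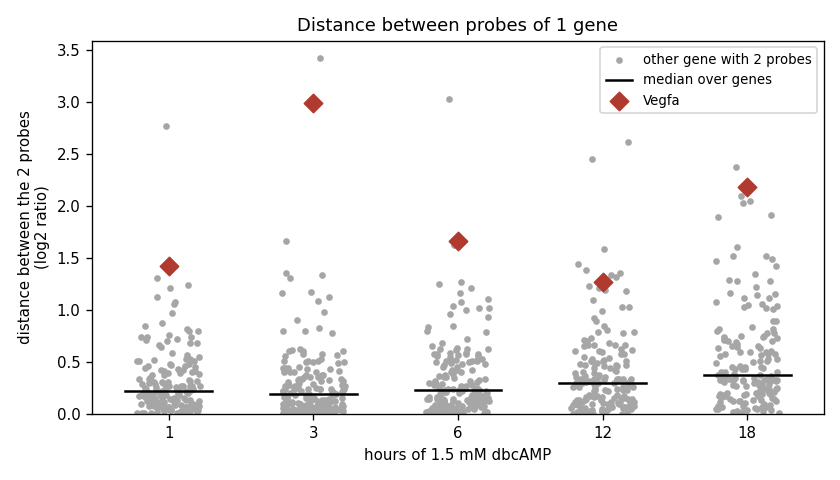
Absolute distance between the mean log2 ratios of the probes of a gene (y axis) at each time of dbcAMP (x axis), for genes with 2 probes, with Vegfa as diamonds and the median over genes as bars. At 3 h the distance for Vegfa is 2.99 against a median of 0.19.

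On plate 52, which holds Vegfa 52C12, the median probe stood at -0.13 after 1 h and -0.34 after 18 h, below that of plate 25, which holds 25C10 (0.05 and 0.08). Within its plate 52C12 was the lowest probe at 3 h and 6 h, and it remained lower at 18 h, by 1.04, with arrays centred on plate medians (limma adjusted p = 0.00441). The genes Nrp2, Vegfd and Nos3 also had a probe on plate 52 and another elsewhere. Nrp2, a VEGF coreceptor, was at -0.93 by its plate 52 probe and -0.12 by the other at 18 h. Vegfd, a ligand of the lymphatic receptor Flt4, was at 1.66 by its plate 52 probe and 0.17 by the other. Nos3, the endothelial nitric oxide synthase, was at -0.83 by its plate 52 probe and between -0.12 and 0.80 by the other 3. With arrays centred on plate medians, the probes of Nrp2 were at -0.60 (52A09, limma adjusted p = 0.0628) and 0.41 (43F04, adjusted p = 0.0464).

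Flt1, the decoy and signalling receptor of VEGF-A, had log2 ratios of 0.04, -0.15 and 0.37 at 1 h, 0.48, 0.22 and 0.22 at 3 h, 0.09, 0.07 and 0.18 at 6 h, 0.01, 0.61 and 0.35 at 12 h, and 0.06, 0.62 and 0.49 at 18 h. It was above 0 on 14 of 15 arrays, and its arrays at different times overlapped. The highest mean, 0.39 ± 0.29 at 18 h (SD, n = 3), was not past the threshold (95% interval 0.08 to 0.69, limma adjusted p = 0.0648), and without array 1, the lowest of the 3, it was (0.55, adjusted p = 0.0317). With arrays centred on plate medians it was also past it (0.50, adjusted p = 0.0258, limma).

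Kdr, the main signalling receptor, had log2 ratios of -0.17, -0.25 and -0.15 at 1 h, -0.14, -0.33 and -0.10 at 3 h, and -0.10, 0.05 and 0.20 at 6 h. At 12 h all 3 arrays were above 0, at 1.13, 0.38 and 0.46, and at 18 h they spread from -0.91 to 0.84 with 0.18 between. The mean was 0.66 ± 0.41 at 12 h (SD, n = 3, limma adjusted p = 0.109), the highest of the 96 probes of its plate, and 0.04 ± 0.88 at 18 h (95% interval -0.47 to 0.55, adjusted p = 0.924). The arrays at 18 h thus lay on both sides of 0. None of the neighbours in its order over times differed past the threshold, with limma adjusted p-values of 0.529 to 1.00.

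Edn1, which encodes the precursor of endothelin 1, had log2 ratios of 0.00, 0.28 and 0.09 at 1 h, 0.06, -0.11 and 0.13 at 3 h, 0.10, 0.32 and -0.85 at 6 h, 0.00, -0.41 and 0.00 at 12 h, and -0.11, 0.61 and -0.48 at 18 h. It was above 0 on 8 arrays and below 0 on 7. Its mean at 18 h was 0.01 ± 0.55 (SD, n = 3), with a 95% interval of -0.45 to 0.47 (limma adjusted p = 0.983). Changes in either direction within those bounds are therefore not excluded, and the bounds are not a limit of detection. While the ratio of the converting enzyme was called higher from 3 h to 18 h, that of its substrate's mRNA was not past the threshold at any time (means -0.14 to 0.13).

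The wider VEGF list held 10 measured genes with 14 probes, of which 3 were higher and 3 lower at 18 h (10.6% and 11.3% of all probes). Placental growth factor Pgf, a ligand of Flt1, had log2 ratios of 0.79, 0.44 and 0.40 at 18 h, a mean of 0.55 ± 0.21 (SD, n = 3, limma adjusted p = 0.00191). Its mean at 1 h was -0.22, and the difference between 18 h and 1 h was 0.76 (limma adjusted p = 0.0136, where 2.74% of all probes were called). Leaving out any one replicate number took this difference past 0.05 (limma adjusted p 0.129 to 0.211). Those fits called 12 to 20 of all probes in it, against 137 with every array. Vegfd was higher by probe 52H11, at 0.47, 1.33 and 3.18 (mean 1.66, adjusted p = 0.00737), and not by probe 29H11. Without array 3, which was far above the others, 52H11 was at 0.90 and no longer called (limma adjusted p = 0.0661). It was above 0 on all 15 arrays.

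Vegfb, another ligand of Flt1, was lower by probe 1E08 at 18 h, with -0.40, -0.53 and -0.64 (mean -0.53, limma adjusted p = 0.0101), while its probe 1D02 was at 0.11. Without array 3 the adjusted p of 1E08 was 0.0616. The coreceptor Nrp2 was lower by probe 52A09, at -1.03, -0.73 and -1.02 (mean -0.93, limma adjusted p = 0.00677), and this probe was below 0 on all 15 arrays. The ligand Vegfc (0.19), the receptor Flt4 (-0.08) and the coreceptor Nrp1 (0.07) were not past the threshold at 18 h. With arrays scaled to a common spread Vegfb 1E08 (-0.35, adjusted p = 0.0987) and Vegfd 52H11 (1.09, 0.0993) were not called, and Pgf (0.35, 0.0364) was (limma). Over genes the list's median log2 ratio was 0.06, against 0.03 over 4123 named genes. For this the probes of a gene were averaged even where they disagreed, which put Vegfa at -0.28, Vegfd at 0.92 and Nrp2 at -0.52.

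**Figure D3:**
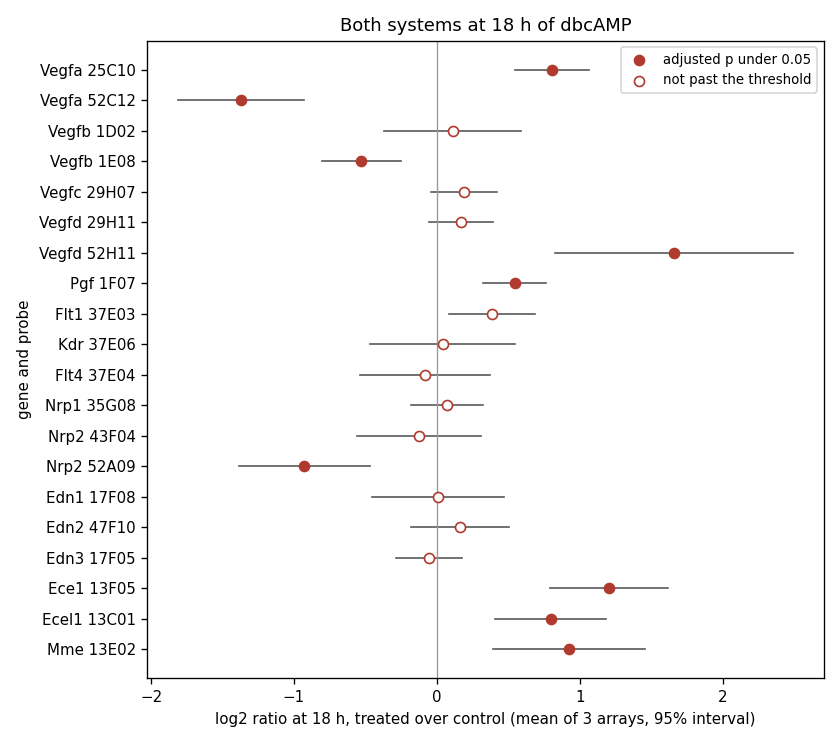
Mean log2 ratio of dbcAMP-treated over control RNA at 18 h (x axis) with its 95% interval from limma for every probe of the VEGF and endothelin lists (y axis), n = 3 arrays, filled where the adjusted p is under 0.05. Ece1, Ecel1 and Mme lie to the right of 0, while the 2 probes of Vegfa lie on either side of it.

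Of the endothelin list of 9 genes, 6 were measured, each by 1 probe. At 18 h the 3 proteases were higher, where 10.6% of all probes were, while the 3 peptide precursors were not past the threshold. Besides Ece1 these were Ecel1, an endothelin-converting enzyme-like protein of neurons, and Mme, neprilysin, which degrades endothelin and other peptides. Ecel1 had log2 ratios of 1.24, 0.20 and 0.96 at 18 h (mean 0.80, limma adjusted p = 0.00687) and was at 0.17 at 1 h. Without array 1 it was at 0.58 (adjusted p = 0.0689). Mme was above 0 on all 15 arrays and was called at 12 h (1.02, 1.42 and 0.49, mean 0.97, adjusted p = 0.0270) and at 18 h (1.77, 0.84 and 0.17, mean 0.93, adjusted p = 0.0157, limma).

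Mme was no longer called at 18 h without array 1 (0.50, adjusted p = 0.167), nor at 12 h without array 1 (0.95, adjusted p = 0.128) or array 2 (0.75, adjusted p = 0.177, limma). The precursor Edn3 was lower at 12 h, at -0.29, -0.73 and -0.59 (mean -0.54, limma adjusted p = 0.00761), and without array 2 the adjusted p was 0.0608. At 18 h Edn3 was at -0.06 and Edn2 at 0.16. The median over the 6 genes was 0.48 at 18 h, against 0.03 over all named genes. The probes of the 3 proteases are all on plate 13 (plate median 0.13 at that time), and with arrays centred on plate medians Ece1 was at 1.07, Ecel1 at 0.66 and Mme at 0.79 (limma adjusted p 0.00104, 0.0134 and 0.0359). With arrays scaled to a common spread Ecel1 (0.51, adjusted p = 0.0605) and Mme (0.59, 0.0653) were not called at 18 h, while Ece1 was (0.78, 0.00757, limma).

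Vegfa is a classical target of the hypoxia response. A list of other genes of that response and of the pathway of hypoxia-inducible factors held 30 measured genes. Of these 15 were higher at 18 h by at least 1 probe, as were 479 of all 4123 named genes. No gene had a probe called lower by limma, also at an unadjusted p under 0.05, and the median log2 ratio over the 30 was 0.47 against 0.03 over all named genes. Gapdh, spotted on 53 of the 82 probes, was among the 15 with 6 of its probes, at up to 0.36. The heme oxygenase Hmox1 was at 1.46 (limma adjusted p = 5.59e-06), the glucose transporter Slc2a1 at 1.23 (8.09e-06), the lactate transporter Slc16a3 at 1.18 (0.000208) and the glycolytic enzyme Tpi1 at 0.79 (0.000103). The subunits of the hypoxia-inducible factors, named after their values had been seen, were also among the 15, with Hif1a at 1.05, Hif3a at 0.94, Arnt at 0.86 and Epas1 at 0.71.

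**Figure D4:**
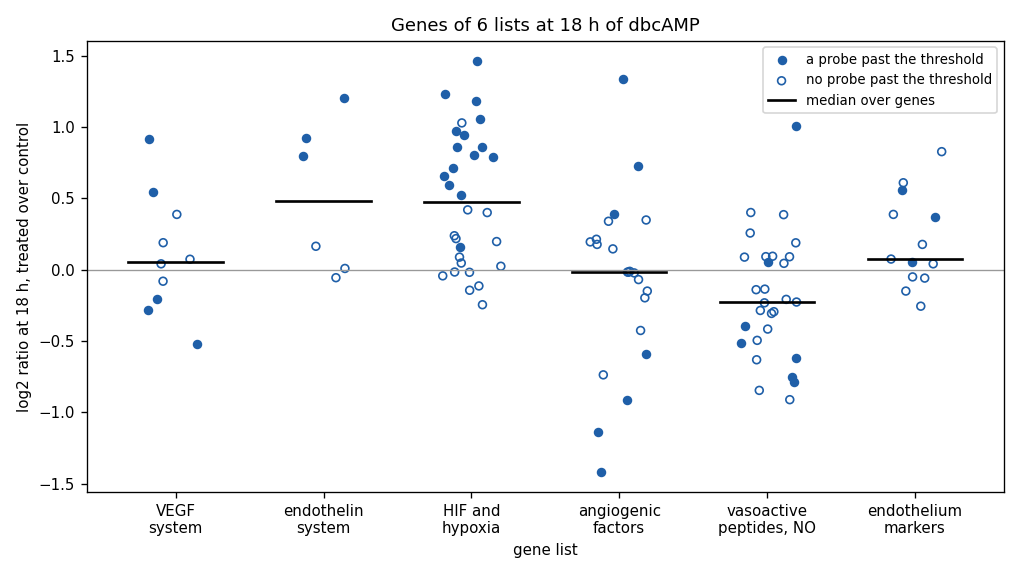
Mean log2 ratio at 18 h of dbcAMP over control (y axis) for each measured gene of 6 lists (x axis), averaged over its probes and filled where a probe was past the threshold, with the list median as a bar. The endothelin and hypoxia lists have medians of 0.48 and 0.47, and the VEGF list a median of 0.06.

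Other angiogenic factors had no common direction at 18 h, with 3 of 22 measured genes higher and 4 lower, where 479 of all 4123 named genes were higher and 471 lower. Col18a1, whose collagen gives rise to the inhibitor endostatin, was at 1.34, and the matricellular protein Ccn1 at -1.14. Sema3a, a repulsive guidance cue that binds Nrp1, was at -1.42 by a probe of plate 52, and the growth factor Pdgfa at -0.59. Of 29 genes of vasoactive peptides and nitric oxide, 2 were higher and 6 lower by at least 1 probe, against the same 479 and 471 of 4123. Nos3 was in both counts, by different probes. Among these vasoactive genes the inducible nitric oxide synthase Nos2 was at 1.00, the guanylate cyclase subunit Gucy1b1 at -0.78 and the bradykinin receptor Bdkrb1 at -0.40. The call of Bdkrb1 was lost under 7 of 14 alternatives, among them without array 1 (-0.30, limma adjusted p = 0.0831).

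Markers of endothelium, the cell type in which Flt1, Kdr and Ece1 are best known, were measured by 16 probes of 13 genes, Flt1 and Kdr included. At 18 h 3 of the 16 probes were higher and 1 was lower, where 10.6% and 11.3% of all probes were. The median over the probes lay between 0.16 and 0.22 on the 3 arrays, against 0.00 to 0.10 at 1 h. Over the 13 genes, however, the median was 0.07 at 18 h and 0.08 at 1 h. None of the 16 probes was called by limma between those times. The probes called higher were those of Slco1a4 (0.55) and Egfl7 (0.37) and 1 of Nos3 (0.80). The 1 called lower was another probe of Nos3. Without array 1 Egfl7 (0.37, adjusted p = 0.0731) and the higher probe of Nos3 (0.50, 0.111) were not called, and without array 3 Egfl7 was not (0.30, 0.127, limma). Slco1a4 was not called when any one of the 3 arrays was left out (0.37 to 0.66, limma adjusted p 0.0609 to 0.261). Their part in the ratios of Vegfa and Ece1 was not tested.

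The named probes most like each member over the 15 arrays were sought among 4271 probes with every ratio, by Pearson correlation, as a description. For Vegfa 25C10 these were Kcnj10 (0.88), Cd44 (0.85), Ddx1 (0.84), Slc18a3 (0.84) and Fst (0.83), and the most opposed were Cnp (-0.93), Ccn1 (-0.90) and Cox5b (-0.89). For Vegfa 52C12 the likest was Ptbp3 (0.88), and Acaa1a was the most opposed (-0.78). For Ece1 they were Slc38a1 (0.93), Gsk3a (0.90), Snrpn (0.89), Cnn1 (0.89) and Gper1 (0.86), with Fshb most opposed (-0.88). The likest probe was Uncx for Kdr (0.87), Ppig for Flt1 (0.79) and Klhl41 for Edn1 (0.90). The points share the arrays and their differing spread, and the highest of so many correlations is large by construction. The lists of the 2 Vegfa probes named no gene in common.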

How the data were processed

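The study's labels describe 2-colour hybridizations of treated (Cy5) against untreated (Cy3) RNA of DRG cells. Linear ratios of treated to control signal, 1 per probe and array, were deposited by the authors without intensities. How they corrected background, normalized and filtered is not given in the sources used here. Array number sets the precision. Ratios were taken to log2 and not centred. Probe names came from the platform annotation, which can be old, and 4423 of 5088 had 1 symbol, of 4153 genes. All 6 member probes carry current GRCr8 symbols. Probes of 1 gene were tested separately and averaged only for lists.

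Testing at a time required at least 2 of 3 ratios of a probe, and between 28 and 105 ratios were missing per array. Tests were two-sided with limma 3.58.1 (R 4.3.3, statmod 1.5.0), fitted with 1 mean per time over all 15 arrays, each time against 0, all pairs of times and an F test. The members, lists and tests were chosen with earlier results of these data known. Named were all probes of the members and of the VEGF and endothelin lists, in other lists the 4 genes with the smallest p at 18 h, and for each member up to 5 likest and 3 most opposed probes. Lists of neurons, glia, fibroblasts, macrophages and pericytes had medians of -0.26 to 0.03 at 18 h. Motifs were matched to RefSeq promoters. The scripts were checked on simulated data. Alternatives were array, plate and spread scaling, other filters, a robust prior, array weights, a replicate block, the methods' t-test and leaving out arrays. Plots used matplotlib 3.10.9.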

Additional observations from a re-analysis of the deposited data

Results flagged for a closer look

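Differences between times were past the threshold for both probes of Vegfa and for Pgf (limma, adjusted over all probes), and these are differences between effects of dbcAMP at separate times. Vegfa 25C10 was higher at 18 h than at 3 h by 0.71 on the log2 scale. Vegfa 52C12 was higher at 12 h than at 3 h by 1.83 and higher at 18 h than at 3 h by 1.53, and its F test over the 5 times gave 13.01. Pgf 1F07 was higher at 18 h than at 1 h by 0.76 and higher at 18 h than at 3 h by 0.70. Groups held 3 arrays, for which no single array was tested as standing apart.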

How the results depend on the processing

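The 5 times, 18 h minus 1 h and the F test gave 21 results for both Vegfa probes and Ece1. These were recomputed under 270 alternatives in all, of which 236 kept the side of the threshold, 4 moved past it and 30 lost it. None reversed a called value, and direction changed in 4 of the 236, all in values that were not called. Outside these 21 results, the limma call was lost for Vegfa 25C10 at 18 h minus 3 h under 6 of 10 alternatives. For Vegfa 52C12 it was lost at 12 h minus 3 h under 3 of 10 and at 18 h minus 3 h under 2 of 10. With only the arrays of a time in the fit, Vegfa 25C10 at 18 h (0.81, adjusted p = 0.0613), Vegfa 52C12 at 12 h (-1.07, 0.119) and 18 h (-1.37, 0.056), and Ece1 at 6 h (0.77, 0.195), 12 h (1.46, 0.121) and 18 h (1.20, 0.0536) lost the limma call, with fewer arrays to estimate the spread. With arrays scaled to a common spread, Vegfa 52C12 lost it at 12 h (-0.95, 0.0663) and 18 h (-0.90, 0.0621), and the cause was not tested. The methods' t-test after adjustment called neither gene at any time and without adjustment passed Vegfa 52C12 and Ece1 at every time and Vegfa 25C10 at 18 h. The means were, for Vegfa 52C12, -1.24, -2.89, -1.42, -1.07 and -1.37 from 1 h to 18 h, for Vegfa 25C10 0.81 at 18 h, and for Ece1 0.97, 0.77, 1.46 and 1.20 from 3 h to 18 h. Ece1 at 1 h passed with array weights (0.77, 0.00206), the arrays of the time alone (0.77, 0.0168), a common spread (0.99, 0.00129) and the methods' t-test without adjustment (0.77). Without 1 array Vegfa 52C12 was at -1.39 to -1.16 at 1 h and -1.20 to -0.93 at 12 h, and lost the call at 1 h without replicate 2 (limma adjusted p = 0.0692) or 3 (0.0738) and at 12 h without replicate 1 (0.0669). For Ece1 the range without 1 array was 0.90 to 1.09 at 3 h and 0.67 to 0.90 at 6 h, and F of Vegfa 52C12 was 7.70 to 16.2. Centring on plates turned Nrp2 43F04 at 18 h from -0.12 to 0.41 (adjusted p = 0.0464) and Stmn2 43B10 from -0.51 to 0.0225. Centring on plate medians moved the median of all probes by at most 0.0283, centring arrays on their medians by at most 0.0141 and scaling to a common spread by at most 0.0072.

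The count of probes called was 118 at 1 h (0 to 654 over the alternatives), 145 at 3 h (0 to 758), 212 at 6 h (0 to 461), 430 at 12 h (0 to 543) and 1101 at 18 h (1 to 1112), lowest with the methods' t-test after adjustment. Arrays of 1 replicate number did not deviate together (r of -0.06 to 0.06 over 30 pairs, and 6 of 15 arrays correlated best with their own number). A deviation shared by treated and control RNA cancels in a ratio, so whether the numbers pair the cultures is not settled by this. With the replicate block 1088 probes were called at 18 h, and the F test called 52 where it had called 93. Under the block Vegfa 25C10 at 18 h stayed at 0.81 (limma adjusted p = 0.00108) and Ece1 at 1.20 (0.000828), whereas 18 h minus 3 h for Vegfa 25C10 lost the call (adjusted p = 0.0642). Background correction, a filter on dim probes and a slide block were not run, since the values used here are ratios without intensities or slide numbers.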

Other observations

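Markers of pericytes and smooth muscle, the contractile cells of vessel walls, had no common direction at 18 h of dbcAMP, with 2 of 14 probes higher and 1 lower in treated cells, where 10.6% and 11.3% of all probes were. The potassium channel subunit Kcnj8 was at 1.03 and its partner Abcc9 at 0.69 on the log2 scale, while the smooth muscle actin Acta2 was at -0.52 by 1 probe and -0.26, not past the threshold, by the other. Abcc9 lost the limma call under 8 of 14 alternatives, among them without array 1 (adjusted p = 0.121) or 2 (0.171), and the called Acta2 probe under 7 of 14, among them without array 1 (0.0632) or 2 (0.0772). Of 23 probes for markers of sensory neurons 3 were higher and 4 lower at 18 h (limma), beside the same shares of all probes. The higher ones, named after their values had been seen, were 1 probe of Nefl, whose probes averaged 0.51, Elavl4 at 0.45 and Scn11a at 0.30, and the lower ones included Uchl1 at -0.84, Ntrk2 at -0.63 and Gap43 at -0.59. Of 12 probes for markers of fibroblasts 1 was higher and 5, of 4 genes, were lower at 18 h (limma), where 10.6% and 11.3% of all probes were. The median log2 ratio over the 10 measured fibroblast genes was -0.26.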
